A study of Rattus norvegicus with 12 samples.

Results

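The microRNAs (miRNAs) described here are miR-532, miR-500 and miR-188, which come from 1 cluster of hairpins on the rat X chromosome. They were found by name among the 375 miRNA assays of a TaqMan qPCR array card for rodents, where 5 assays matched, namely miR-500, miR-532-3p, miR-532-5p, rno-miR-532-5p and miR-188-5p. Of these, miR-532-5p and rno-miR-532-5p read the same arm of 1 hairpin, with a mouse and a rat design, so the 5 assays stand for 4 mature miRNAs. Each card well gives a Ct, the PCR cycle at which the signal crosses a threshold, so that a lower Ct means more of the miRNA and 1 cycle is 1 log2 unit. Wells that never crossed were deposited as 40 and are called undetermined.

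The study measured these miRNAs in Long Evans rats to find out which ones mark stellate cells of the medial entorhinal cortex (MEC), layer II neurons whose axons reach the dentate gyrus. Both dentate gyri of pups received the fluorescent dye DiO at postnatal day 2, and at day 4 or 5 dissociated MEC cells were sorted into DiO positive cells (stellate, 5 samples) and DiO negative cells (non-stellate, 5 samples). The dissected MEC (tissue, 2 samples) came from rats of day 23 and was kept in RNAlater. RNA of sorted cells was purified with the RNAqueous Micro kit. For tissue the labels name the mirVana kit and the study's methods name a Norgen kit for whole MEC, so the tissue kit is not settled, but both differ from that of the sorted cells. Sorted cells of both hemispheres were pooled. The sorted samples were low in RNA, and set volumes of them entered pre-amplification. The DiO negative cells can include every other cell type of the MEC that passed the viability gates, and the description fields of non-stellate 3 and 5 read as labeled although their titles, sources and fluorescence do not. Age, sorting, extraction and RNA input all changed together between tissue and sorted cells and cannot be told apart.

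A hairpin precursor is cut by Drosha and Dicer into a 5p and a 3p strand, and the strand that is loaded into an Argonaute protein is kept while the other is usually degraded. The strands of 1 hairpin are made together but may accumulate to different levels. A mature miRNA finds its targets mainly through its seed, bases 2 to 8. MiR-188-5p is known from hippocampal neurons, where it rises with synaptic potentiation and acts on neuropilin-2, a receptor that restrains dendritic spines.

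In the rat assembly GRCr8, 6 hairpins lie inside the span of Clcn5 (chrX:17857260-18011844, plus strand), the gene of an endosomal chloride and proton exchanger. The exon structure of Clcn5 was not used here, so intron or exon was not assigned. Of the 6 hairpins, 5 are on the plus strand, the strand of Clcn5, and cover 11542 bases from Mir532 to Mir500. Mir532 (chrX:17919185-17919263) and Mir188 (chrX:17919585-17919664) are neighbors with 321 bases between them. Mir362 follows at chrX:17926485-17926549, Mir501 at chrX:17927189-17927272 and Mir500 at chrX:17930647-17930726. The last hairpin, Mir3560, is on the minus strand opposite Mir501.

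**Figure D1:**
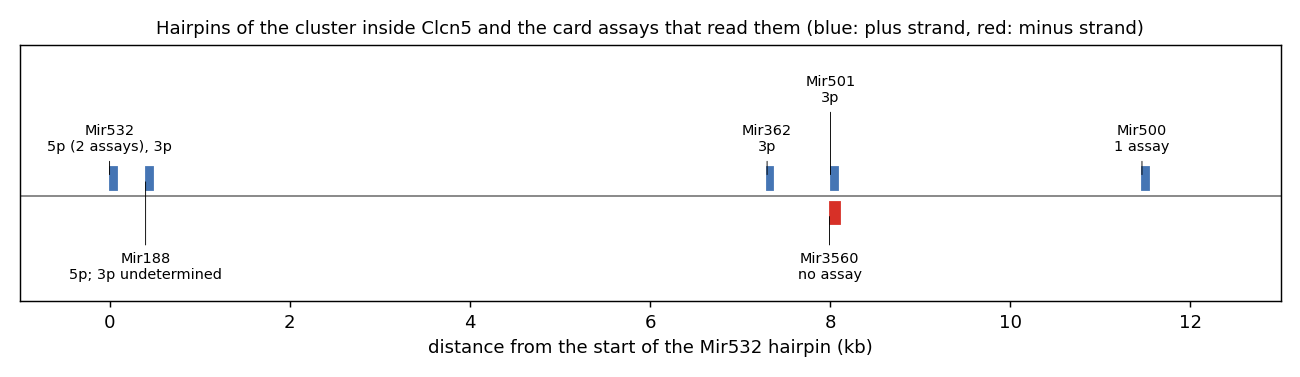
Hairpins inside Clcn5 drawn to scale by their distance in kb from the start of Mir532, in blue on the plus strand and in red on the minus strand, with the arms that the card reads. The plus strand hairpins cover 11542 bases, and Mir532 and Mir188 stand together at 1 end with Mir500 at the other.

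The mature sequences are shown because the results turn on which arm of which hairpin each assay reads. They are written 5′ to 3′ with the seed in capitals and come from RefSeq (GRCr8), where every member was found by name. Both arms of Mir500 are given because the card names no arm for miR-500.
rno-miR-532-5p: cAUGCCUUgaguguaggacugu
rno-miR-532-3p: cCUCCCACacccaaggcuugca
rno-miR-188-5p: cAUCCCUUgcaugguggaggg
rno-miR-500-5p: aAUCCUUGcuaucugggugcuuag
rno-miR-500-3p: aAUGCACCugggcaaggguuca
rno-miR-501-3p: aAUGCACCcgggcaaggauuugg
The last sequence is a neighbor on the card, shown because its seed AUGCACC is the seed of miR-500-3p. No other rat miRNA in the table of 693 mature names held that seed, and the seeds of miR-532-3p, miR-188-5p and miR-500-5p were each found once. The seed of miR-532-5p, AUGCCUU, was shared with rno-miR-511-5p. The members therefore did not form 1 seed family, although their genes are neighbors.

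The Mir532 hairpin is shown because its arms parted in the data, with the 5p arm and then the 3p arm in capitals.
Mir532 hairpin: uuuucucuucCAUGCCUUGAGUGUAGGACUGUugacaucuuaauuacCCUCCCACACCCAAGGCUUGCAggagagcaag

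Sample quality set the scale for these values. The sorted samples had 203 to 260 determined miRNA assays and the tissue samples 292 and 302. The median Ct over the 176 assays determined in every sample was 28.0 to 29.5 in stellate, 28.9 to 30.9 in non-stellate and 23.7 in both tissue samples. The mean Ct of the 4 U6 wells, on which the deposited normalized values rest, was 16.5 to 19.0, 17.7 to 20.2, and 15.6 and 16.0 in the same order. Of the marker lists, the neuronal one (5 miRNAs, all determined in every sample) summed to 12% to 28% of the U6 level in stellate, 5.40% to 36.7% in non-stellate and 141% to 187% in tissue. The oligodendrocyte markers miR-219 and miR-338-3p summed to at most 0.00929% of U6 in sorted samples and to 0.104% and 0.191% in tissue, with miR-219 undetermined in all stellate and miR-338-3p in all non-stellate samples. The 4 vascular markers summed to 0.0501% to 1.60% in sorted samples and to 8.73% and 12.6% in tissue. Of the 6 blood and microglia markers, miR-142-5p and miR-451 were undetermined in all sorted samples, and the list summed to 0.127% to 2.58% in stellate and to 4.12% and 5.02% in tissue. In non-stellate samples it ran from 0.147% to 3.68e+04%, the top set by miR-155 wells. No miRNA marker of stellate cells was on hand.

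All 5 assays were determined in every stellate and tissue sample, and the 1 gap was miR-500 in non-stellate 3 and 5. Each member had its lowest raw Ct in tissue, and the stellate and non-stellate ranges of determined wells overlapped for all 5. A Ct compared between assays includes how well each one amplifies, so levels are compared between samples and not between assays. In bulk samples, fewer cells with a miRNA and less of it per cell cannot be told apart.

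MiR-532-3p, the 3p strand of Mir532, had raw Ct of 26.5, 26.5, 27.3, 26.8 and 26.5 in stellate samples 1 to 5. It had 27.0, 26.8, 27.8, 26.8 and 29.3 in non-stellate samples 1 to 5. It had 24.9 and 25.0 in tissue. Both tissue values were lower than all sorted ones, and non-stellate 5 was the latest sample.

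MiR-532-5p, the other strand of the same hairpin, had raw Ct of 30.3, 30.9, 34.6, 31.4 and 30.0 in stellate samples 1 to 5 by the mouse assay. It had 31.4, 31.9, 34.1, 31.5 and 34.2 in non-stellate samples and 25.5 in both tissue samples. Stellate 3, non-stellate 3 and non-stellate 5 were later than all other samples, and tissue was earlier than any sorted sample by over 4 cycles.

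By the rat assay, the same strand had raw Ct of 29.7, 29.1, 31.5, 29.8 and 28.5 in stellate samples 1 to 5. It had 30.3, 30.5, 32.4, 30.1 and 32.6 in non-stellate samples and 25.0 and 25.3 in tissue. The order was nearly that of the mouse assay, with tissue lowest and non-stellate 3 and 5 highest.

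MiR-188-5p, from the hairpin next to Mir532, had raw Ct of 29.8, 29.4, 29.4, 29.0 and 29.1 in stellate samples 1 to 5. It had 30.8, 29.0, 29.4, 29.4 and 30.4 in non-stellate samples and 28.2 and 28.4 in tissue. Tissue was below every sorted sample by less than 1 cycle from the nearest, the smallest gap among the 5 assays.

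MiR-500, from the far end of the cluster, had raw Ct of 32.3, 32.6, 33.8, 32.0 and 32.4 in stellate samples 1 to 5. It had 32.7, 32.9 and 32.8 in non-stellate 1, 2 and 4 and no determined value in the other two. It had 28.0 and 28.2 in tissue. The determined non-stellate values lay inside the stellate range, and tissue lay over 3 cycles earlier. On raw Ct, tissue thus lay below every sorted sample for 5 of 5 members, beside 88.7% of all tested assays.

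**Figure D2:**
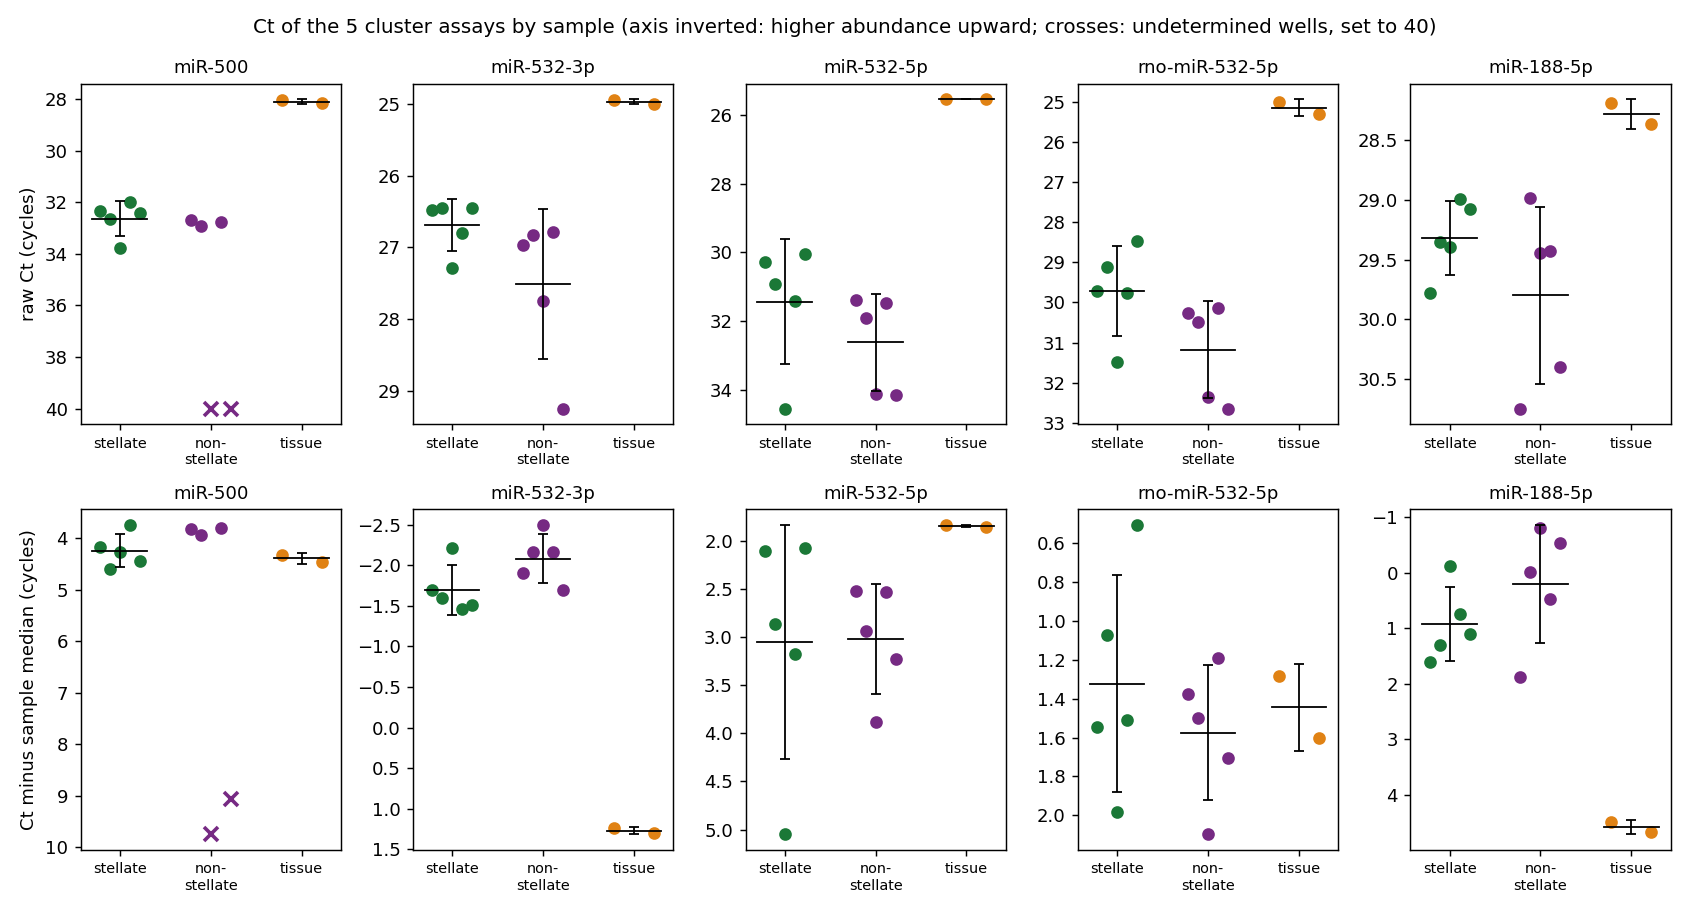
Raw Ct (top) and Ct minus the sample's median over 176 assays (bottom) of each assay, in cycles on inverted axes, with 1 point per sample, crosses for undetermined wells, and lines and bars for the mean and SD of groups with no undetermined well. Raw Ct is lowest in tissue in every panel, while after centring the tissue points of miR-532-3p (1.24 and 1.30) and miR-188-5p (4.49 and 4.67) sit below those of all sorted samples, that is, at a higher Ct.

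The first comparison asked whether any member differed between stellate and non-stellate cells. Values were scaled by subtracting the mean U6 Ct of the sample, as in the deposited normalized table, and differences are given as log2 so that a positive one means more in stellate cells. Of the 5 members, 0 passed a limma adjusted p of 0.05, beside 0% of all 222 tested assays (0 called, with 16 at an unadjusted limma p under 0.05 and 12 by exact permutation). The study itself reported miRNAs up-regulated in labeled cells by its own filter and limma test, among them miR-143 and miR-150. Here these were higher in stellate cells by 2.69 and 2.37 log2 units, each at limma adjusted p = 0.587. The source of this difference in calls was not tested. The median difference was 0.36 over the members and 0.46 over all tested assays. After median centring, which subtracts each sample's median Ct over the 176 common assays, 0 members and 0% of all assays passed as well (28 at an unadjusted limma p under 0.05).

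The U6-scaled Ct of miR-532-3p averaged 9.02 ± 0.771 in stellate and 9.02 ± 0.548 in non-stellate cells (SD, n = 5 each). The log2 difference was 0.0049 ± 0.52 (SE, 95% interval -1.14 to 1.15, limma adjusted p = 0.999). After median centring it was -0.39 ± 0.25 (95% interval -0.94 to 0.16, limma adjusted p = 0.458). MiR-532-3p was then lower in stellate cells in 5 of 5 pairs of the same number, by -0.18 to -0.71 log2 units, and the exact permutation of 5 against 5 gave p = 0.0952 (two-sided, 252 splits, smallest possible 0.00794). That permutation did not use the pairs, and the centred limma fit with the pairs as a block gave limma adjusted p = 0.273. With U6 scaling miR-532-3p was higher in 2 of 5 pairs.

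For miR-532-5p the mouse assay averaged a U6-scaled Ct of 13.8 ± 1.04 in stellate and 14.1 ± 1.26 in non-stellate cells (SD, n = 5 each). Its log2 difference was 0.36 ± 0.72 (SE, 95% interval -1.21 to 1.93, limma adjusted p = 0.895) and -0.034 after median centring. The rat assay gave 12.04 ± 0.723 and 12.7 ± 1.05 (SD, n = 5 each), a log2 difference of 0.65 ± 0.61 (SE, 95% interval -0.69 to 1.98, limma adjusted p = 0.776) and 0.25 after median centring. Both assays were higher in stellate cells in 3 of 5 pairs, and the intervals allow a difference of more than 1 log2 unit either way for the mouse assay.

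MiR-188-5p averaged a U6-scaled Ct of 11.6 ± 1.08 in stellate and 11.3 ± 0.913 in non-stellate cells (SD, n = 5 each). The log2 difference was -0.34 ± 0.65 (SE, 95% interval -1.76 to 1.09, limma adjusted p = 0.892). After median centring it was -0.73 ± 0.53 (95% interval -1.92 to 0.46, limma adjusted p = 0.493), and lower in stellate cells in 4 of 5 pairs, pair 1 being the exception with 0.26.

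MiR-500 had the largest fitted difference of the members, 2.23 ± 1.39 log2 units (SE, 95% interval -0.80 to 5.26, limma adjusted p = 0.629), and it rests on the undetermined wells of non-stellate 3 and 5. With undetermined wells missing it was -0.27 (95% interval -1.69 to 1.15, limma adjusted p = 0.946). In the 3 pairs with both wells determined the differences were -0.91, 0.70 and 0.14. Non-stellate 3 and 5 also had the latest median Ct over the common assays, 30.3 and 30.9, against at most 29.5 in the other sorted samples, and its part in the undetermined wells was not tested.

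**Figure D3:**
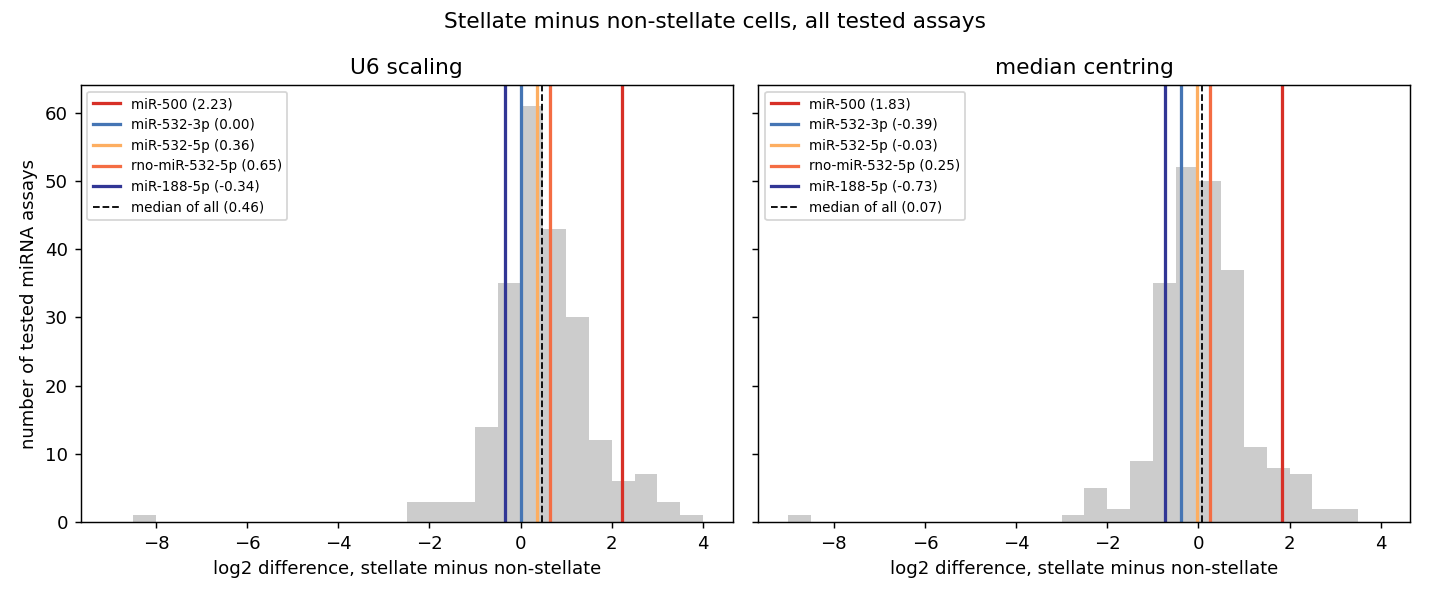
Log2 difference of stellate minus non-stellate cells for 222 tested assays (grey bars, number of assays per 0.5 log2 units), with each member as a colored line and the median of all assays dashed, under U6 scaling and after median centring. All members but miR-500 lie between -0.34 and 0.65 with U6 scaling, within the bulk of the assays, and 0 passed.

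The second comparison was of tissue with the 2 sorted groups averaged, fitted with limma over the 12 samples. With U6 scaling the median difference over all 222 tested assays was 3.02 log2 units and after median centring it was 0.03, so each member was read against that shift. With U6 scaling 2 of the 5 members passed, both assays of miR-532-5p and both higher in tissue, beside 62.2% of all tested assays called higher (1.35% lower and 63.5% in either direction). After median centring 2 other members passed, miR-532-3p and miR-188-5p, both lower in tissue, beside 25.2% of all tested assays called lower (23.9% higher and 49.1% in either direction). In either direction together, the share of members called was under that of all assays with both scalings, so the counts do not set the cluster apart from the card.

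The 2 strands of Mir532 moved by different amounts. MiR-532-5p was higher in tissue by 4.18 ± 0.83 log2 units with U6 scaling (SE, 95% interval 2.38 to 5.99, limma adjusted p = 0.000888), from a U6-scaled Ct of 12.8 to 16.2 in sorted samples to 9.58 and 9.95. The rat assay gave 2.99 ± 0.71 (SE, 95% interval 1.46 to 4.53, limma adjusted p = 0.00258), from 10.97 to 14.4 in sorted samples to 9.03 and 9.70, and without tissue 1 this was 2.66 and lost its call (limma adjusted p = 0.0519). Tissue lay outside the sorted range in both, as it did on that side for 68% of all tested assays.

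MiR-532-3p differed by -0.17 ± 0.59 log2 units with U6 scaling (SE, 95% interval -1.46 to 1.12, limma adjusted p = 0.803), with tissue at 8.98 and 9.40 inside the sorted range of 8.27 to 9.96. After median centring miR-532-3p was lower in tissue by -3.16 ± 0.28 (SE, 95% interval -3.78 to -2.54, limma adjusted p = 1.08e-05), while the centred differences of the 5p strand were 1.19 ± 0.66 (SE, limma adjusted p = 0.159) by the mouse assay and 0.0047 ± 0.37 (SE, limma adjusted p = 0.990) by the rat assay. Against the median of all assays, the 3p strand was lower in tissue, and neither 5p assay passed. The centred tissue Ct of the mouse assay, 1.83 and 1.85, still lay below every sorted sample (2.07 to 5.05). The same held for 27% of all tested assays, while the rat assay overlapped.

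MiR-188-5p was at -1.03 ± 0.75 log2 units with U6 scaling (SE, 95% interval -2.66 to 0.61, limma adjusted p = 0.255) and lower in tissue by -4.02 ± 0.62 after median centring (SE, 95% interval -5.38 to -2.65, limma adjusted p = 0.000331). Its centred Ct was 4.49 and 4.67 in tissue against -0.81 to 1.88 in the sorted samples. Of the 222 tested assays, 4.50% had a lower difference than miR-188-5p and 12.2% a lower one than miR-532-3p. Tissue Ct lay above every sorted sample after centring for both, as for 26.1% of all tested assays.

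MiR-500 was at 3.76 ± 1.63 log2 units with U6 scaling (SE, 95% interval 0.21 to 7.30, limma adjusted p = 0.0608) with its undetermined wells at 40. With those wells missing it was higher in tissue by 2.51 (95% interval 1.09 to 3.93, limma adjusted p = 0.00311), and -0.34 after median centring (limma adjusted p = 0.341). With the wells at 40 it also passed under some other scalings and with some single samples left out. Its centred tissue Ct, 4.32 and 4.47, lay inside the range of the determined sorted wells, 3.74 to 4.59.

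These calls depend on the scale. Both assays of miR-532-5p lost their call after median centring, and miR-532-3p and miR-188-5p gained theirs. The oligodendrocyte, vascular and neuronal marker sums were also higher in tissue, as given above, and their part in these differences was not tested.

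**Figure D4:**
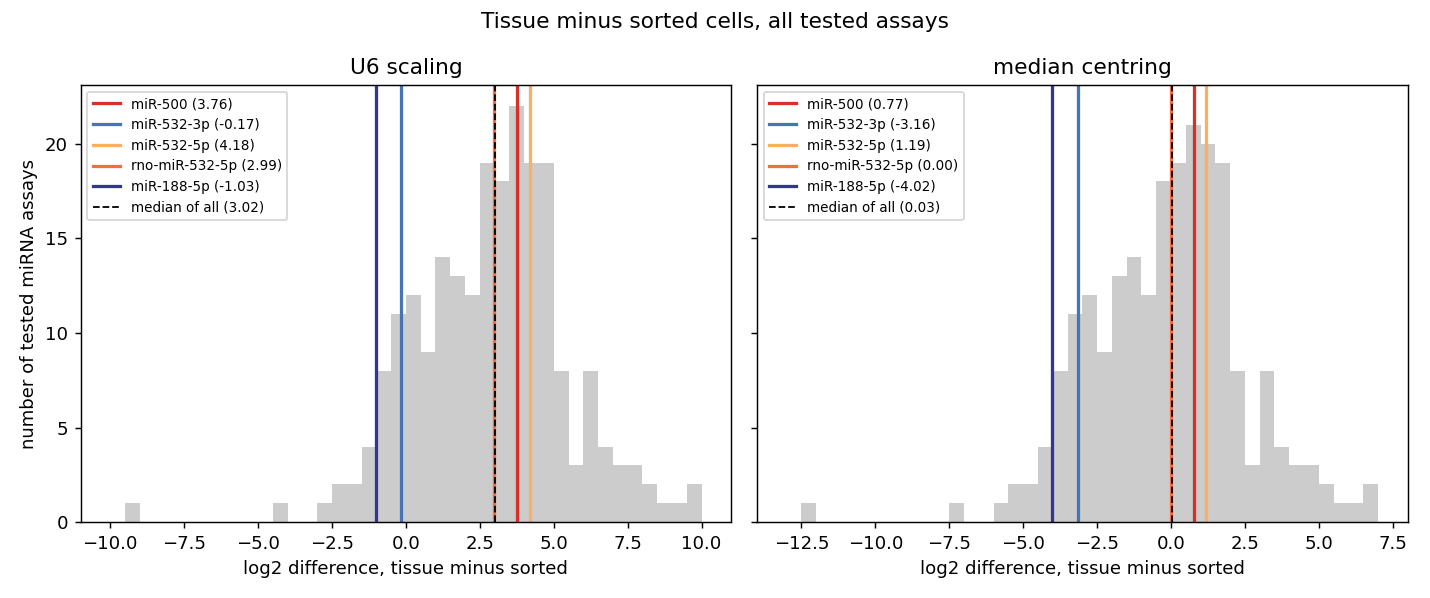
Log2 difference of tissue minus sorted cells for 222 tested assays (grey bars, number of assays per 0.5 log2 units), with each member as a colored line and the median of all assays dashed, under U6 scaling and after median centring. MiR-188-5p (-1.03 and -4.02) and miR-532-3p (-0.17 and -3.16) lie to the left of the other members under both scalings, and with U6 scaling the line of rno-miR-532-5p (2.99) falls on the median (3.02).

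Differences between 2 assays within 1 sample need no scaling, since any reference cancels. A constant gap in amplification cancels as well when the difference is compared between samples. A gap that changes between samples does not cancel, and the 2 assays of miR-532-5p did not keep a constant distance, as given below. How far this enters the strand difference was not tested. Of the 6 differences computed, the one between the strands of Mir532 was the largest in change with the mouse assay of the 5p strand. With the rat assay the change was -3.17 cycles, smaller in size than the 4.02 of miR-188-5p minus rno-miR-532-5p. The raw Ct of miR-532-5p minus that of miR-532-3p was 3.79, 4.46, 7.26, 4.63 and 3.58 in stellate samples 1 to 5. It was 4.42, 5.09, 6.38, 4.69 and 4.92 in non-stellate samples and 0.593 and 0.547 in tissue. The 5p strand was thus later than the 3p strand by over 3 cycles in each sorted sample and by less than 1 cycle in tissue, with no overlap. After median centring, single assays also lay wholly below the sorted samples in tissue for 27% of all tested assays, and wholly above for 26.1%. The share of other assay pairs without overlap was not computed for any of the 6 differences. None of them can therefore be read as particular to the cluster.

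The difference between the strands was 4.92 ± 1.12 cycles in sorted samples (SD, n = 10) and 0.570 in tissue (n = 2). Tissue minus sorted was -4.35 cycles, and the exact permutation of 2 against 10 gave p = 0.0152 (two-sided), the smallest that its 66 splits allow. By the rat assay of the 5p strand the difference was 3.34 ± 0.729 cycles in sorted samples (SD, n = 10) and 0.173 in tissue, a change of -3.17 cycles (exact two-sided permutation p = 0.0152). The exact tests of these differences, and 4 of the 6 pairs, were chosen after the values were seen, and the p-values are not adjusted for the 6 computed. The permutations of tissue against sorted samples also treated all sorted samples as independent. Labeled and unlabeled cells came from the same biological replicates, so these p-values, here and below, may be too small.

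Between stellate and non-stellate cells the strand difference was 4.75 ± 1.48 and 5.10 ± 0.759 cycles (SD, n = 5 each), which differed by -0.36 (exact two-sided permutation p = 0.595). By the rat assay it was 3.02 ± 0.802 and 3.66 ± 0.543 cycles (SD, n = 5 each), which differed by -0.64 (exact two-sided permutation p = 0.190). The first was smaller than the SD of either group, and the second was between the SDs of the groups.

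MiR-188-5p minus miR-532-3p, from neighboring hairpins, was 2.45 ± 0.768 cycles in sorted samples (SD, n = 10, range 1.15 to 3.78) and 3.25 and 3.37 in tissue. Both tissue values lay within the sorted range, and the change was 0.85 cycles (exact two-sided permutation p = 0.167). MiR-188-5p minus rno-miR-532-5p went from -0.88 ± 1.25 cycles in sorted samples (SD, n = 10) to 3.20 and 3.07 in tissue, a change of 4.02 cycles (exact two-sided permutation p = 0.0152). Tissue lay above all sorted samples in this difference, whose sorted range was -2.91 to 0.60 cycles.

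MiR-500 minus miR-532-3p was 5.94 ± 0.374 cycles in the 8 sorted samples where miR-500 was determined (SD, range 5.20 to 6.48) and 3.08 and 3.16 in tissue. The change of -2.81 cycles gave p = 0.0222 by exact permutation (two-sided), the smallest that 45 splits allow. Its SD over sorted samples was the smallest of the 6 differences, over 2 fewer samples.

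The 2 assays of miR-532-5p did not run at a constant distance. The mouse assay minus the rat assay was 0.558, 1.79, 3.07, 1.66 and 1.56 cycles in stellate samples 1 to 5. It was 1.14, 1.43, 1.79, 1.33 and 1.52 in non-stellate samples and 0.548 and 0.247 in tissue. The mouse assay was later in all 12 samples, by most in stellate 3, and the gap shrank by 1.19 cycles in tissue (exact two-sided permutation p = 0.0455). The tissue change of the 5p strand therefore differs between its assays, at 4.18 and 2.99 log2 units with U6 scaling. The probe sequences of the assays were not used here.

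**Figure D5:**
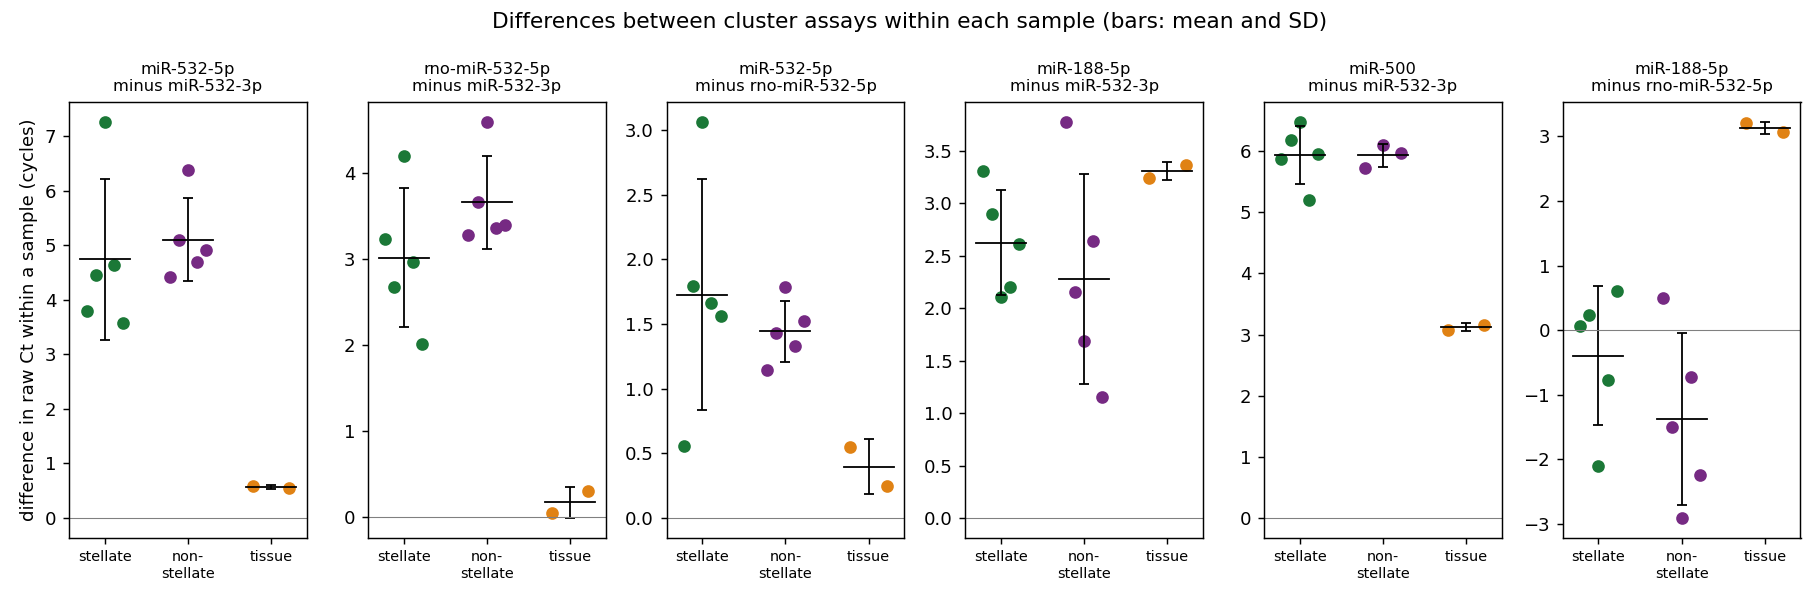
Difference in raw Ct between 2 cluster assays within each sample, in cycles, 1 point per sample, with the mean and SD of each group, wells at 40 left out. For the strands of Mir532 (first panel) the sorted samples lie between 3.58 and 7.26 and the tissue samples at 0.593 and 0.547.

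Over the 10 sorted samples, the profiles of some members ran opposite to each other after median centring, but mostly not with U6 scaling. This is given as a description, since all values of 1 sample share its card and its median. With median centring, Pearson's r was 0.74 between the assays of miR-532-5p and 0.58 between miR-532-3p and miR-188-5p, against a median of 0.02 over all pairs of the 176 assays. It was -0.53 between miR-532-3p and miR-532-5p, -0.61 between miR-532-3p and the rat assay of the 5p strand, -0.67 between miR-188-5p and miR-532-5p, and -0.61 between miR-188-5p and the rat assay. These negative values stood at percentiles 5.86 to 11.8 of all pairs, and the positive ones at 95.4 and 88.4. With U6 scaling, where the median over all pairs was 0.55, the strands were at 0.26 and 0.61. MiR-188-5p was then at -0.28 with miR-532-5p and at 0.11 with the rat assay. Except for miR-188-5p with miR-532-5p, the sign of the negative relations thus depends on the scale.

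The assays with the profile most like each member were named by Pearson's r of the median-centred Ct over the same 10 samples, among 172 assays outside the cluster. For miR-532-3p they were let-7f (0.72), miR-744 (0.71) and rno-miR-207 (0.65). For miR-532-5p they were miR-135b (0.78), miR-29a (0.75) and miR-342-3p (0.75). For rno-miR-532-5p they were miR-7b (0.85), miR-7a (0.75) and miR-135b (0.74), and for miR-188-5p they were miR-192 (0.90), miR-106a (0.87) and miR-423-5p (0.86). MiR-135b stood in the list of both assays of the 5p strand, and no assay stood in the list of miR-532-3p and in that of a 5p assay. With U6 scaling the list of miR-532-5p held the same 3 assays, while miR-99b (0.94) took the place of miR-135b for rno-miR-532-5p. Of the 3 named for miR-532-3p only miR-744 (0.92) was left. For miR-188-5p only miR-192 (0.94) was left, joined by miR-197 (0.90) and miR-20b (0.88).

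The card held 3 more miRNAs of the cluster, all undetermined in at least 8 of the 10 sorted samples and hence not tested. MiR-362-3p was determined in stellate 2 (Ct 34.9), non-stellate 1 (Ct 30.5) and both tissue samples (Ct 30.5 and 30.0). MiR-501-3p, known to act on the AMPA receptor subunit GluA1, was determined in stellate 1 (Ct 35.6) and non-stellate 1 (Ct 35.8) and in neither tissue sample. MiR-188-3p, the other strand of Mir188, was undetermined in all 12 samples while miR-188-5p was determined in all 12.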

How the data were processed

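The deposited raw table holds Ct (log2 scale, falling as abundance rises). Per the methods, the authors obtained it with ViiA7 Software 1.2 after Megaplex reverse transcription and pre-amplification, which adds an amplification step before the array. A value of 40 stands in undetermined wells. The deposited normalized table, also log2, equals Ct minus the mean of the 4 U6 wells (largest deviation 7.11e-15). The authors' fold-change and limma tables hold their own comparisons and were not used. Groups follow the sample titles.

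Assays undetermined in at most 3 of 10 sorted samples (222 of 375) were fitted to sign-reversed values with limma 3.58.1 under R 4.3.3. Empirical Bayes tests were two-sided, with Benjamini-Hochberg adjustment over the 222 assays and a threshold of 0.05, and without a replicate block, as the methods state none. Only the fit of stellate against non-stellate cells was run on simulated data, drawn independently for each assay and sample. Those data held no pairing and no undetermined wells, so they do not bear on the tissue calls. Members have 1 well per card, and the number of samples limits the precision. Scaling, undetermined wells, filters, replicates and the block were varied. The members, neighbors, marker lists and tests were chosen with earlier results of these data known. Named miRNAs were the members, their cluster neighbors on the card, the fixed cell type markers, and the 3 assays closest in profile to each member determined in all sorted samples.

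The series' design gives labeled and unlabeled cells of 5 biological replicates, so equal numbers were read as pairs. Deviations from group means correlated at 0.331, 0.119, 0.256, 0.155 and 0.0743 in pairs 1 to 5, against a mean of -0.0481 between other numbers.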

Additional observations from a re-analysis of the deposited data

Results flagged for a closer look

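Of 14 groups of 5 sorted samples examined for a sample far from the rest, 2 held one, where chance gives 1 in 20 groups or 0.7 here, and both rest on the same well. The U6-scaled Ct of miR-532-5p by the mouse assay was 15.5 in stellate 3, against 12.8 to 13.5 in the other stellate samples. The difference of miR-532-5p minus miR-532-3p was 7.26 cycles in stellate 3, against 3.58 to 4.63 in the others. By the rat assay of the same strand, stellate 3 was at a U6-scaled Ct of 12.5, inside the stellate range of 10.97 to 12.9. However, rno-miR-532-5p minus miR-532-3p was also largest in stellate 3, at 4.20 cycles against 2.01 to 3.24 in the other stellate samples. That difference was not among the 14 groups examined. The cause was not tested.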

How the results depend on the processing

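Between stellate and non-stellate cells, 0 members passed under any of the 25 alternatives to the U6 fit or the 4 to the centred fit while sizes and signs moved. MiR-532-3p turned to -0.39 with median centring (the same with the replicate block), -0.33 with global mean scaling and -0.0096 with U87 scaling, and ran from -0.20 to 0.24 with 1 sample left out. MiR-532-5p turned to -0.034 with median centring and ran from -0.16 to 0.80 with 1 sample left out. MiR-188-5p turned to 0.45 with snoRNA202 scaling and ran from -0.68 to -0.0080 with 1 sample left out. The rat assay ran from 0.21 to 0.90 and was 1.43 with snoRNA202 scaling. MiR-500 was 0.23 with Ct capped at 35, ran from 1.00 (without non-stellate 3) to 2.96, and turned to -0.27 with undetermined wells missing (-0.39 after centring). Without both non-stellate 3 and 5, miR-500 was -0.27 (-0.39 after centring), miR-532-3p -0.26 and miR-532-5p -0.27. With the replicate block the value of miR-500 stayed at 2.23 (limma adjusted p = 0.487), and the block changed no call in either comparison.

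Between tissue and sorted cells, median centring gave calls to miR-532-3p (-3.16) and miR-188-5p (-4.02) and took them from miR-532-5p (1.19) and rno-miR-532-5p (0.0047). Global mean scaling did the same, at -2.85, -3.70, 1.51 and 0.32, and so did Y1 scaling, at -3.68, -4.53, 0.68 and -0.51. MiR-532-3p, not called with U6 scaling, was 0.22 with snoRNA135, 0.06 with snoRNA202 and 0.58 with U87 scaling, and ran from -0.38 to 0.038 with 1 sample left out. MiR-500 passed with snoRNA135 (4.15) or U87 scaling (4.51), with undetermined wells missing (2.51) or Ct capped at 35 (2.76), against non-stellate cells alone (4.87) and without both non-stellate 3 and 5 (2.51). With 1 sample left out it ran from 3.14 to 4.12 and passed in 4 of 12 fits, those without non-stellate 1, 2, 3 or 4. The rat assay ran from 2.66 to 3.33, losing its call without tissue 1, so that 1 to 3 members passed. After centring, the calls of miR-532-3p (-3.21 to -3.10) and miR-188-5p (-4.23 to -3.89) held with each sample left out. There miR-500 turned to -0.34 with undetermined wells missing or without both non-stellate 3 and 5, and the rat assay to -0.10 without both, with a range of -0.15 to 0.16 over samples left out. The causes were not tested.

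With U6 scaling the correlations of miR-532-3p were 0.26 with miR-532-5p, 0.61 with rno-miR-532-5p and 0.60 with miR-188-5p. The others were 0.82 between both 5p assays, -0.28 for miR-532-5p with miR-188-5p and 0.11 for rno-miR-532-5p with miR-188-5p. With undetermined wells at 40, miR-500 minus miR-532-3p changed by -3.93 cycles in tissue. Leaving out both doubted samples, centring with undetermined wells missing, centring with 1 sample left out, and, for the assay differences, the exact tests, the samples left out and 4 of the 6 pairs were chosen after seeing the data. The 2 tissue samples bound every statement on tissue.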
